A study of Mus musculus with 5 samples.

Results

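The genes described here store iron in the cell or carry it across membranes and between cells. They are 7 of the 31055 genes listed in the count matrices: the ferritin chains Fth1 and Ftl1, the transferrin receptor Tfrc, transferrin (Trf), the iron importer Slc11a2, the iron exporter ferroportin (Slc40a1) and the ferroxidase ceruloplasmin (Cp). They were chosen by name, for their role in iron handling. The study asked how mesenchymal progenitors (MP) of mouse skeletal muscle respond to a bone fracture, alone or together with an injury of the muscle. GFP+ cells were sorted from the skeletal muscles around the tibia and profiled by single-cell RNAseq, in which each captured transcript is tagged with a unique molecular identifier (UMI) and counted near its 3' end.

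All mice carried Prx1Cre;mTmG on a C57Bl/6 background and were males or females of 10 to 14 weeks. In this model the Prx1 promoter drives Cre in limb mesenchyme, and mTmG is a reporter that turns from a red to a green membrane protein in cells with Cre and in their descendants, so that GFP marks a lineage and not a cell type. The 5 conditions were d0 (uninjured), d3 and d5 after a non-stabilized tibial fracture, and d3 and d5 after polytrauma, which is the same fracture together with a mechanical injury of the adjacent muscles. Each condition has 1 library, pooled from 2 mice. No difference between conditions could therefore be tested, intervals cover counting error only, and the spread between mice is not known.

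Iron that enters a cell is either used, stored in the ferritin shell or sent out again. Transferrin carries ferric iron in the blood and is taken up through the transferrin receptor, and Slc11a2 (DMT1) moves the reduced iron out of the endosome. Ferritin is built of heavy chains (Fth1), which oxidise iron, and light chains (Ftl1), which help to deposit it. Ferroportin is the only known exporter of iron, and ceruloplasmin oxidises the iron that leaves. Iron in damaged tissue comes largely from heme, which Hmox1 (heme oxygenase) opens to release iron.

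Several of these transcripts carry an iron-responsive element (IRE), a short hairpin that is bound by the iron regulatory proteins when iron is low. Binding in the 5' UTR stops translation, and binding in the 3' UTR keeps the transcript from being degraded, so that transcript counts of Fth1, Ftl1 and Slc40a1 do not give protein levels. The elements below were found in the annotated UTRs (GENCODE M21, GRCm38) as the letters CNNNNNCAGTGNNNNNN on the transcript strand, in which the 5 bases after the first C pair with the last 5, Watson-Crick or G with T. The capitals mark the loop. They are shown because 4 of the 7 genes hold a match. Among these 4, the position of the element separates the storage and export genes from the uptake gene Tfrc.

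Fth1, 5' UTR: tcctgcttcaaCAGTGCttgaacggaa
Ftl1, 5' UTR: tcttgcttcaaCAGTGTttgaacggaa
Slc40a1, 5' UTR: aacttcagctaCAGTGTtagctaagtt
Tfrc, 3' UTR, element 1: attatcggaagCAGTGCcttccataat
Tfrc, 3' UTR, element 2: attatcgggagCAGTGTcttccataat
Tfrc, 3' UTR, element 3: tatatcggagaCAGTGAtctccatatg
Tfrc, 3' UTR, element 4: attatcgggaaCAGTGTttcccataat

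The element of Fth1 lies at chr19:9982733-9982759 (+ strand) and is in 4 of its 5 coding transcripts with an annotated UTR. That of Ftl1 lies at chr7:45459780-45459806 (- strand) and is in 1 of 2 transcripts, and that of Slc40a1 at chr1:45925466-45925492 (- strand) in 1 of 4. The elements of Tfrc lie at chr16:32631220-32631246, chr16:32631599-32631625, chr16:32631664-32631690 and chr16:32631711-32631737 (+ strand), in 1 of 3 transcripts. The Fth1 and Ftl1 hairpins share the same 5 paired bases, and they differ in the loop and in the bases printed before the first C of the pattern. Of all genes with an annotated 5' UTR, 0.148% hold such a match there (31 of 20916), and of those with a 3' UTR, 0.613% (129 of 21045). No match with these letters and pairs was found in Trf, Slc11a2 or Cp. An element with other letters or an extra unpaired base in the stem would be missed, so its absence is not shown.

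The libraries hold between 2001 (d5 fracture) and 13641 (d5 polytrauma) barcodes, and 1468 to 11941 cells were retained, 29831 in all. Depth differed: the median per retained cell was 3640 UMIs at d0, between 15688 and 17963 at d3 and in d5 polytrauma, and 34949 in d5 fracture. For 2 libraries the cell numbers of the study go against the labels, and the cell numbers were followed. A library of 6915 barcodes, labelled d5 post-fracture, stands here for d3 polytrauma, and another of 2001 barcodes, labelled d3 post-polytrauma, for d5 fracture. With the conditions as labelled, 8 of the differences past 2-fold turn in sign, so each statement on these libraries rests on this reading. Both d5 libraries also use another set of cell barcodes than the others: they share at most 3 barcodes with any d0 or d3 library. With each other they share 944, where d5 fracture holds 2001 in all. Why so many are shared was not tested. A difference between d5 and d3 or d0 and a difference in library preparation cannot be told apart. The d0 library shares 405 barcodes with d3 fracture and 525 with d3 polytrauma. The comparisons within 1 barcode set are thus each d3 library against d0, d3 polytrauma against d3 fracture and d5 polytrauma against d5 fracture.

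Markers of fibro-adipogenic or mesenchymal progenitors (FAP/MP: Prrx1, Cxcl12, Pdgfra, Ly6a, Cd34) were found in most of the sorted cells. At least 2 of these 5 were found in 74.3% of d0 cells and in 91.1% to 96.0% of cells elsewhere. These shares are without thinning and depend on depth, which was lowest at d0. By summed level the order was another, with 2332 CPM (UMIs of a gene per 1000000 UMIs) at d0 and 933 to 1591 CPM elsewhere. The summed level of 7 hematopoietic markers, which are found on the macrophages that recycle iron, ranged from 14.3 to 101 CPM, highest in d3 polytrauma. All 7 had UMIs in each injured library, while 1 of them was at 0 at d0. The 3 hepatocyte markers, from the main source of plasma transferrin and ceruloplasmin, summed to 0.0643 to 1.09 CPM, with 1 to 2 of them at 0 in every library but d3 polytrauma. The 5 erythroid markers summed to 303 CPM at d0 and to 2.85 to 60.8 CPM elsewhere. Without cells with 2 or more hematopoietic markers no log2 ratio of the 7 genes between libraries moved by more than 0.07.

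Levels are CPM of the UMIs of all retained cells together. In such sums fewer cells with a transcript and fewer transcripts per cell cannot be told apart, so shares of cells and levels within clusters are given below as well. Ferritin dominated. Fth1 and Ftl1 ranked between 10 and 101 among all genes by level in every library and together took 1.01% of all UMIs at d0, 0.744% in d3 fracture, 1.13% in d3 polytrauma, 0.427% in d5 fracture and 0.514% in d5 polytrauma. The other 5 genes stayed under 75 CPM in all libraries, and each was found in few cells: after thinning every cell to 2000 UMIs, at most 6.84% of the cells of a library held a UMI of any of them.

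**Figure D1:**
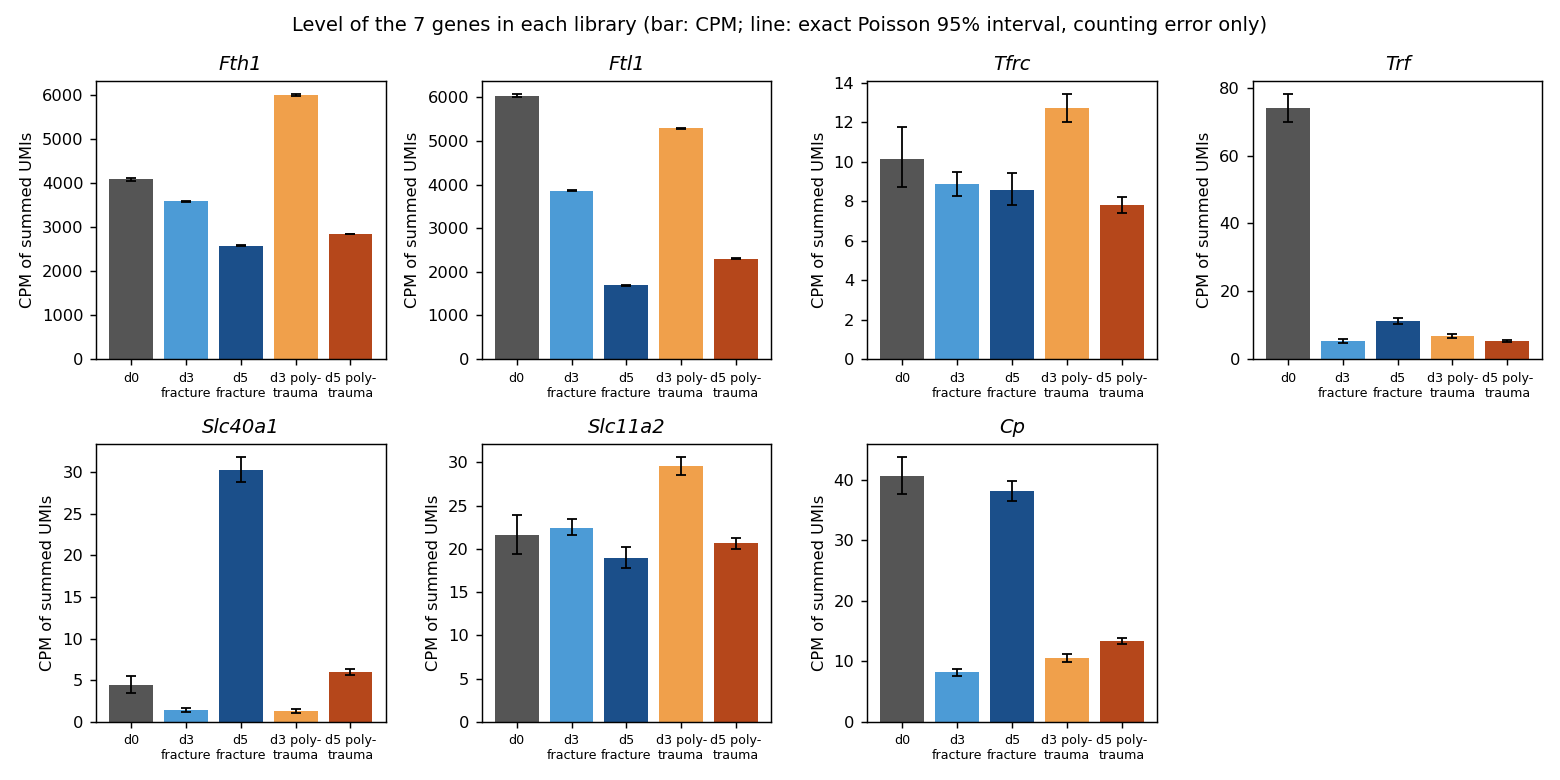
Level of each gene (CPM of summed UMIs, linear axis from 0) in the 5 libraries, 1 per condition; bars are CPM and lines the exact Poisson 95% interval. Ferritin and Tfrc are highest at d0 or in d3 polytrauma, Trf stands out at d0 with 74.0 CPM, and Slc40a1 in d5 fracture with 30.3 CPM.

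A ratio of at least 2 in either direction was called, with no test. From d0 to d3 fracture, 3 of the 7 genes were called lower (Trf, Slc40a1, Cp) and none higher, where 37.7% of the 9388 genes that passed a mean of 5 CPM were called in either direction and 25.2% lower. The same 3 were called lower from d0 to d3 polytrauma, with 36.5% of all genes called and 24.9% lower. Both comparisons share the d0 library. Of all genes, 12.5% and 11.6% were called higher. Between d3 and d5 fracture 4 were called, Slc40a1, Cp and Trf higher (32.9% of all genes) and Ftl1 lower (4.37%), against 37.3% in either direction. Between d3 and d5 polytrauma Slc40a1 was called higher (25.1% of all genes) and Fth1 and Ftl1 lower (3.44%), against 28.6% in either direction. Between polytrauma and fracture none of the 7 was called at d3, where 3.49% of all genes were (1.65% higher and 1.84% lower), and 3 were called lower in polytrauma at d5 (Slc40a1, Cp, Trf), where 8.37% were called, 6.99% lower and 1.38% higher. All 7 genes passed the filter.

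**Figure D2:**
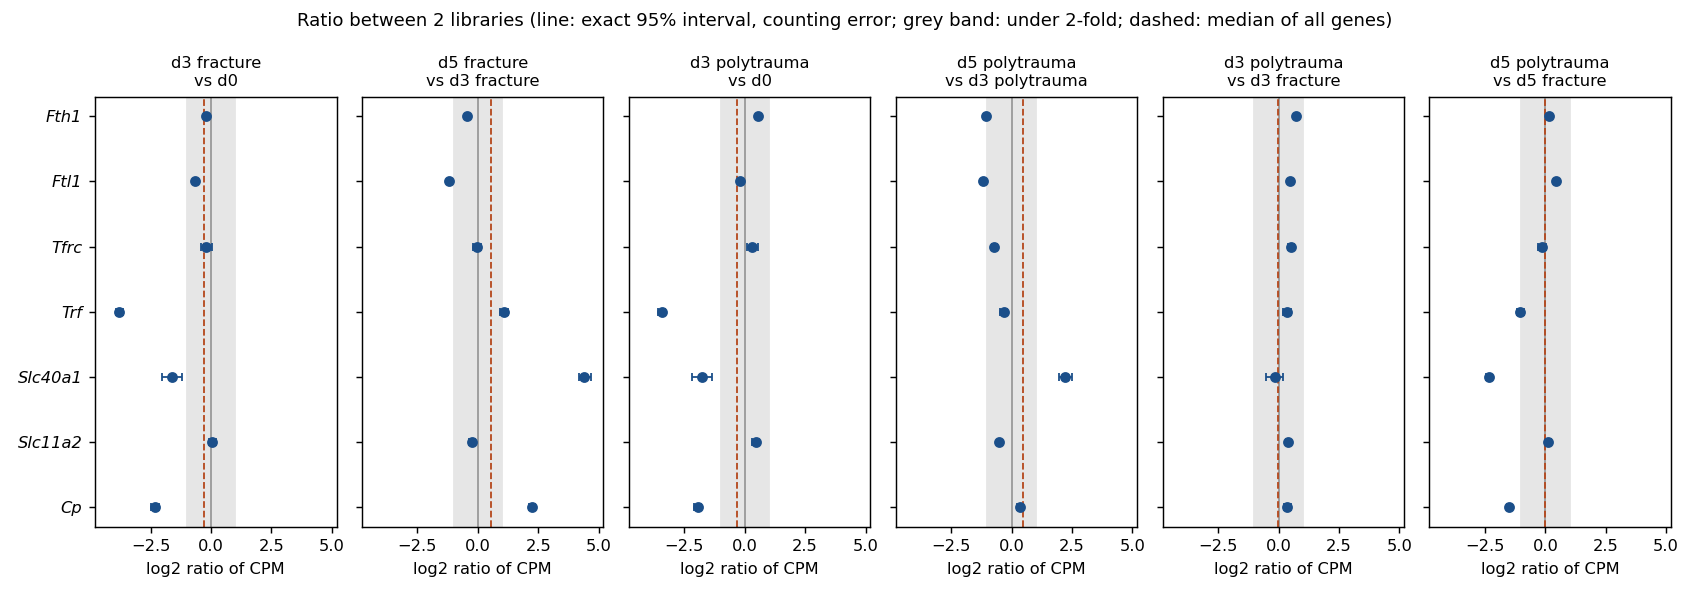
Log2 ratio of CPM of each gene in the 6 comparisons; lines are exact 95% intervals, the grey band marks ratios under 2 and the dashed line the median of all genes tested. The ratios of d3 polytrauma to d3 fracture lie within the band, while Slc40a1 spans from -2.35 to 4.41 over the comparisons.

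The calls above were made around a log2 ratio of 0. The median log2 ratio over all genes was not 0 in every comparison, and is given here beside that of the members. It was -0.27 for d3 fracture and -0.30 for d3 polytrauma against d0, 0.53 for d5 against d3 fracture, 0.46 for d5 against d3 polytrauma, and near 0 between polytrauma and fracture (-0.03 at d3 and -0.02 at d5). The medians over the 7 genes were -0.65, -0.19, -0.04, -0.52, 0.40 and -0.14 in the same order.

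Ferritin heavy chain (Fth1, chr19:9980598-9985098) was lower at d5 than at d3 after both injuries and highest in d3 polytrauma. Its level was 4085 CPM at d0, 3587 in d3 fracture, 2581 in d5 fracture, 6007 in d3 polytrauma and 2844 in d5 polytrauma. No interval of these levels overlapped another. The ratio of d3 polytrauma to d3 fracture was 1.67 (95% interval 1.67 to 1.68), which is above that of 96.9% of all genes in this comparison. The level was 2.11-fold lower in d5 than in d3 polytrauma and 1.39-fold lower in d5 than in d3 fracture, while the median of all genes was higher at d5. At d5 the ratio of polytrauma to fracture was 1.10.

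Ferritin light chain (Ftl1, chr7:45457944-45459884) was highest at d0, with 6035 CPM, followed by d3 polytrauma with 5289, d3 fracture with 3857, d5 polytrauma with 2301 and d5 fracture with 1691. Its level was 1.56-fold lower in d3 fracture than at d0 and 1.14-fold lower in d3 polytrauma than at d0. At d5 it was 2.28-fold below d3 after fracture and 2.30-fold below d3 after polytrauma, among the lowest 2.83% and 2.43% of all genes. In polytrauma it was 1.37-fold higher than in fracture at d3 and 1.36-fold higher at d5. A near-identical pseudogene, Ftl1-ps1, is counted separately and had 116 CPM at d0 and between 5.25 and 21.0 CPM elsewhere. How reads were divided between this pseudogene and Ftl1 is not known, and Ftl1 is uncertain to that extent.

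Over all retained cells, the balance of the ferritin chains lay on the light side at d0 and on the heavy side in d3 polytrauma and at d5. There were 0.677 UMIs of Fth1 for each UMI of Ftl1 at d0 (95% interval 0.671 to 0.683), 0.930 in d3 fracture, 1.53 in d5 fracture, 1.14 in d3 polytrauma and 1.24 in d5 polytrauma. In FAP/MP-like cells the same ratio was 0.636 at d0, 1.16 in d3 fracture, 1.28 in d3 polytrauma, 1.81 in d5 fracture and 1.76 in d5 polytrauma, but different clusters hold this class: mainly clusters 6 and 8 at d0, 2 at d3 and 5 at d5, as described below. Tenocyte-like cells had 0.643 at d0 (cluster 10) and 2.27 in d5 polytrauma (cluster 11). At d5 fibroblast-like cells had 0.86 in fracture (0.834 to 0.887) and 1.02 in polytrauma. Chondrocyte-like cells had 1.04 in d5 fracture and 0.983 in d5 polytrauma (0.943 to 1.03). Pericyte-like cells had another order, with 1.25 at d0, 0.823 in d3 fracture, 0.668 in d3 polytrauma, 1.96 in d5 fracture and 1.21 in d5 polytrauma, and hematopoietic-like cells stayed between 0.735 and 1.02 in the 3 libraries with at least 20 of them.

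Most cells held ferritin transcripts in every library. After thinning, 98.8% of d0 cells held an Fth1 UMI, 98.9% in d3 fracture, 99.7% in d3 polytrauma, 95.3% in d5 polytrauma and 88.9% in d5 fracture. The per-cell spread was wide: in d3 polytrauma the tenth of cells with the least Fth1 lay under 2334 CPM and the tenth with the most over 11930 CPM, and in d5 fracture these limits were 576 and 5229 CPM.

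Transferrin receptor (Tfrc, chr16:32608920-32632794), the entry for transferrin-bound iron, differed little between libraries. It had 10.2 CPM at d0 (interval 8.71 to 11.8), 8.85 in d3 fracture, 8.58 in d5 fracture, 12.7 in d3 polytrauma and 7.80 in d5 polytrauma. The levels of d0, d3 fracture and d5 fracture overlapped in their intervals. The ratio of d3 polytrauma to d3 fracture was 1.44 (1.32 to 1.57), and d5 polytrauma was 1.63-fold below d3 polytrauma.

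Slc11a2 (chr15:100387898-100425072), which imports ferrous iron, was likewise highest in d3 polytrauma. Its level was 21.6 CPM at d0, 22.5 in d3 fracture, 19.0 in d5 fracture, 29.6 in d3 polytrauma and 20.7 in d5 polytrauma. Only d3 polytrauma stood apart from all others by its interval (28.5 to 30.6), with a ratio to d3 fracture of 1.32 (1.25 to 1.39). Thus Fth1, Ftl1, Tfrc and Slc11a2 were each higher in d3 polytrauma than in d3 fracture, by 1.32 to 1.67-fold, with a median log2 ratio of -0.03 over all genes. Trf and Cp were 1.28-fold and 1.29-fold higher in the same pair, and the interval of the Slc40a1 ratio held 1 (0.699 to 1.14). Slc11a2 overlaps a gene on the other strand (Gm5475), which had at most 0.459 CPM.

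Transferrin (Trf, chr9:103204001-103230444), the plasma iron carrier, was highest in uninjured muscle. Its level was 74.0 CPM at d0 (70.0 to 78.1), 5.31 in d3 fracture, 6.81 in d3 polytrauma, 11.2 in d5 fracture and 5.40 in d5 polytrauma. The d0 level was 13.9-fold above d3 fracture (log2 ratio -3.80, interval -3.95 to -3.65) and 10.9-fold above d3 polytrauma (-3.44, -3.58 to -3.31), and in these comparisons 2.18% and 2.66% of all genes had a lower ratio. Weighting every cell equally gave smaller differences, -2.73 and -2.96, both still past 2-fold. At d5 the fracture level was 2.07-fold above that of polytrauma, and it was 2.10-fold above d3 fracture, which was not kept with equal weights (log2 ratio 0.22) or within FAP/MP-like cells (-0.13). The latter value compares different clusters. In d3 fracture 57 cells of a cluster found mainly at d0 (cluster 6 below) gave 8.47% of the Trf UMIs. The FAP/MP-like cluster 2 alone had 6.38 CPM, against 15.9 CPM in the FAP/MP-like cluster 5 of d5 fracture. Trf overlaps Gm20425 on the same strand, which had 0 UMIs in every library. How reads in the overlap were counted is not known.

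Ferroportin (Slc40a1, chr1:45908068-45926523), the exporter, was lowest at d3 and highest in d5 fracture. It had 4.36 CPM at d0 (76 UMIs), 1.42 in d3 fracture (142 UMIs), 1.27 in d3 polytrauma (131 UMIs), 30.3 in d5 fracture (1571 UMIs) and 5.94 in d5 polytrauma (1201 UMIs). The d3 libraries overlapped in their intervals. At d5 it was 21.3-fold above d3 after fracture (17.9 to 25.5) and 4.68-fold above d3 after polytrauma (3.91 to 5.65), above 99.5% and 96.6% of all genes. At d5 the level was 5.10-fold lower in polytrauma than in fracture, and 1.27% of all genes had a lower ratio. It was 3.07-fold lower in d3 fracture than at d0, but with equal cell weights (log2 ratio -0.88) or within FAP/MP-like cells (-0.28, on 9 UMIs in d3 fracture) the difference was under 2-fold. Within these cells the ratio of d3 polytrauma to d0 was also under 2-fold, at -0.95. Mostly different clusters hold this class at d0 and at d3. With the deposited labels the high library would be d3 polytrauma, and the d5 ratio of polytrauma to fracture would be 2.22 on the log2 scale in place of -2.35.

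The share of cells showed the same order. After thinning, 6.19% of cells in d5 fracture held a Slc40a1 UMI (exact binomial 95% interval 5.00 to 7.56%), 1.72% in d5 polytrauma, 0.746% at d0, 0.410% in d3 fracture and 0.278% in d3 polytrauma. Without thinning the shares were 38.7%, 7.91%, 1.49%, 2.38% and 1.98%, so that d0 and the d3 libraries changed places with depth. In d5 fracture the thinned share was 8.70% in chondrocyte-like and 6.54% in FAP/MP-like cells (medians of 47424 and 34188 UMIs). It was 0.935% in fibroblast-like cells (42726 UMIs) and 5.13% in unnamed cells. Pericyte-like cells (15321 UMIs) had 0 of 39, which allows up to 9.03%. The few tenocyte-like cells had the largest share, 3 of 16 or 18.8%, with a wide interval (4.05 to 45.6%). The interval of the fibroblast-like share (0.0237 to 5.10%) met those of the other classes. By level, fibroblast-like cells of d5 fracture had 3.50 CPM (2.00 to 5.68) and chondrocyte-like cells 40.1 CPM (36.1 to 44.5), at like depth.

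Ceruloplasmin (Cp, chr3:19957054-20009145), which oxidises exported iron, was high at d0 and in d5 fracture. Its level was 40.7 CPM at d0 (37.7 to 43.8), 8.14 in d3 fracture, 10.5 in d3 polytrauma, 38.1 in d5 fracture (36.5 to 39.9) and 13.3 in d5 polytrauma. The levels of d0 and d5 fracture overlapped in their intervals. It was 4.99-fold lower in d3 fracture and 3.87-fold lower in d3 polytrauma than at d0. At d5 it was 4.68-fold above d3 after fracture and 1.27-fold above d3 after polytrauma, less than the shift of the median gene in the latter. At d5 it was 2.86-fold lower in polytrauma than in fracture. Cp overlaps Hps3 on the other strand, which had 2.55 to 5.33 CPM.

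In uninjured muscle these genes were spread over the cell clusters in different ways. The d0 cells were clustered without the iron genes, and 11 clusters were found. Trf was highest in cluster 7 (235 cells, led by Saa1, Dlk1 and Thrsp), with 703 CPM (652 to 757), and this was also the cluster with the highest Dlk1, at 232 CPM. Next came cluster 8 (140 cells, led by Stra6, Spp1, Plekhb1 and Sbspon), with 416 CPM, and no other cluster passed 82.9 CPM. A Trf UMI was found in 37.4% of cells of cluster 7, without thinning. Both clusters had too few markers of any type for a name. Cp was highest in the same pair in the other order, with 559 CPM in cluster 8 (488 to 639) and 188 CPM in cluster 7, and was found in 55.0% and 45.5% of their cells. It had no UMI in the tenocyte-like cluster 9, led by Chodl and Col22a1 (130 cells). Trf was lowest in the osteoblast-like cluster 10, with 2 UMIs.

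**Figure D3:**
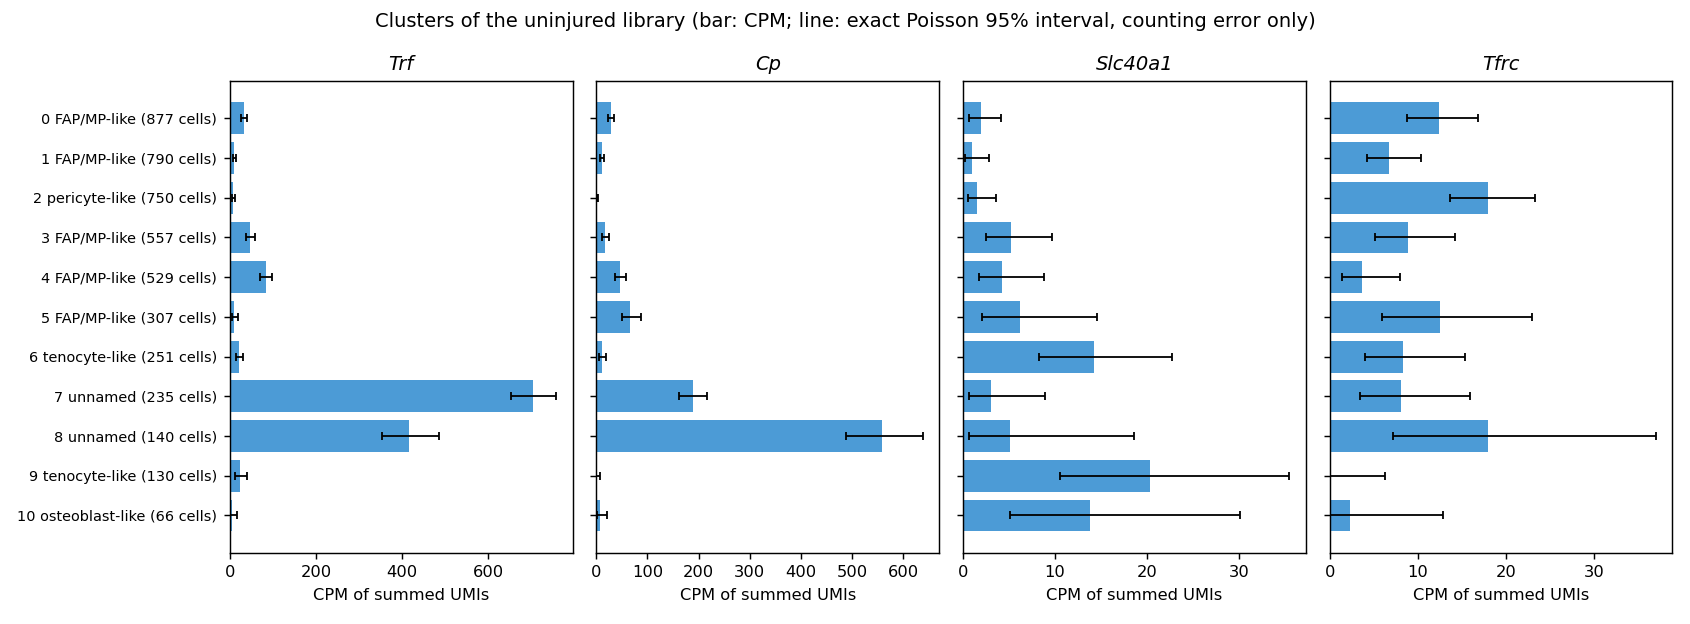
Level (CPM, linear axes from 0) of Trf, Cp, Slc40a1 and Tfrc in the 11 clusters of d0 cells; bars are CPM and lines the exact Poisson 95% interval. Trf and Cp stand out in clusters 7 and 8, with 703 and 559 CPM at most, while Slc40a1 and Tfrc rest on few UMIs, with 20.3 CPM in cluster 9 and 18.0 CPM in cluster 2 at most.

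The storage and transport genes had other peaks at d0. Fth1 was highest in the FAP/MP-like cluster 5, led by Inmt and Gdf10, with 7158 CPM, and lowest in tenocyte-like cluster 9 with 2060. Ftl1 was highest in the FAP/MP-like cluster 0, led by the interferon-response genes Ifi205, Ifi211 and Ifi207, with 9636 CPM, and lowest in pericyte-like cells with 2138. Hmox1 was also highest in cluster 0, at 1047 CPM. Tfrc was highest in pericyte-like cells, with 18.0 CPM (13.7 to 23.3) beside the lowest Ftl1, and was not seen in tenocyte-like cluster 9, where 0 UMIs allow up to 6.24 CPM. Slc40a1 was highest in cluster 9, with 20.3 CPM on 12 UMIs, and lowest in the FAP/MP-like cluster 1, led by Mrgprg, Daglb, Stmn4 and Pi16, with 0.967 CPM on 3 UMIs. Slc11a2 was highest in cluster 5, with 37.4 CPM, and lowest in the FAP/MP-like cluster 3, with 14.6 CPM. For Tfrc, Slc40a1 and Slc11a2 the interval of the highest cluster overlapped that of the next.

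Clustering of all 5 libraries together, again without the iron genes, gave 16 clusters. In 9 of them 1 library made up over 85% of the cells, so that cluster and library are often the same. The 160 hematopoietic-like cells (cluster 15, led by Cd74, Lyz2 and Pf4) held the most ferritin, with 18439 CPM of Fth1 and 21749 CPM of Ftl1, where the next clusters had 6284 and 7450 CPM, and they had 28.5 CPM of Tfrc, 115 CPM of Trf and 1586 CPM of Hmox1. They are few: 99 were in d3 polytrauma, 29 in d5 polytrauma and 23 in d3 fracture. Chondrocyte-like cells (cluster 12, 359 cells, led by Col2a1, Col9a3 and Hapln1) stood opposite. Over the pooled libraries they had the least ferritin, with 1696 CPM of Fth1 and 1655 CPM of Ftl1, and the most Slc40a1, 34.6 CPM, with 23.3 CPM of Tfrc and 1.19 CPM of Trf. The FAP/MP-like cluster 5 of the d5 libraries, led by Sfrp1, Gas6 and Igfbp4, came next for Slc40a1 with 25.2 CPM and held 34.7 CPM of Cp and 14.8 CPM of Trf. These ranks did not hold in d5 polytrauma alone. There chondrocyte-like cells had 10.7 CPM of Slc40a1, cluster 5 had 15.4 CPM and the unnamed cluster 7 had 16.8 CPM. Cluster 7 also had less Fth1 (1867 CPM) and Ftl1 (1887 CPM) than chondrocyte-like cells (2142 and 2178 CPM). Its cells there were shallow, with a median of 4649 UMIs against 15753 in the library, and Gm42418 and Lars2 were among its leading genes. Cluster 5 of d5 polytrauma had less Ftl1 (1894 CPM) than chondrocyte-like cells as well, but more Fth1 (3335 CPM).

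**Figure D4:**
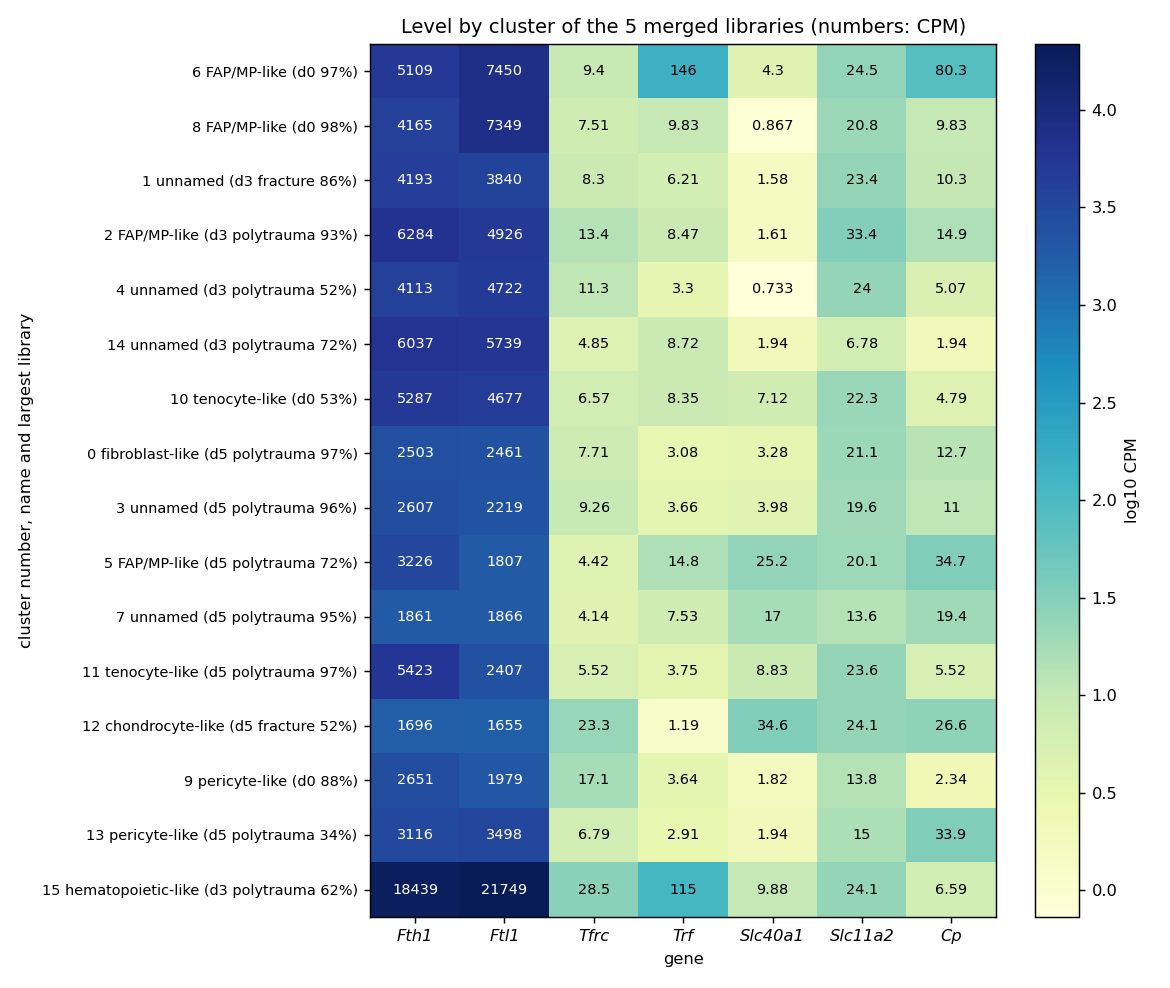
Level of each gene in the 16 clusters of the merged libraries, as CPM (numbers) and log10 CPM (colour); the largest library of each cluster and its share of cells stand beside the name. The hematopoietic-like cluster holds the most ferritin (18439 CPM of Fth1) and the chondrocyte-like cluster, over the pooled libraries but not in d5 polytrauma alone, the most Slc40a1 (34.6 CPM).

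Levels in a library depend on which cells it holds. In d5 fracture 63.3% of cells were in cluster 5 and gave 70.3% of the Slc40a1 UMIs, 85.5% of those of Trf and 70.5% of those of Cp. The 12.7% of cells in the chondrocyte-like cluster gave 22.7% of the Slc40a1 and 48.1% of the Tfrc UMIs. Such shares also depend on depth, with a median of 47183 UMIs in these cells and 34949 in the library. By level these cells had 40.1 CPM of Slc40a1 and 24.0 of Tfrc, and the whole library 30.3 and 8.58. In d5 polytrauma cluster 5 held 20.2% of cells and the chondrocyte-like cluster 1.45%. The fibroblast-like cluster 0, led by Lrrc15, held 34.6% of cells of this library, and Slc40a1 had 3.26 CPM in them. At d0 cluster 6 (55.4% of cells) gave 92.6% of the Trf UMIs.

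The same gene was therefore compared between injuries within 1 cluster at a time, where both libraries had at least 100 cells. At d5 Slc40a1 was lower in polytrauma in 3 of 4 clusters by more than its counting interval. In cluster 5 it had 35.4 CPM in fracture and 15.4 in polytrauma, 2.30-fold lower (2.07 to 2.56). In chondrocyte-like cells it had 40.1 and 10.7 CPM, 3.75-fold lower (2.44 to 6.06). The dividing cells of cluster 3 had 13.1 and 3.35 CPM of it, 3.89-fold lower (2.95 to 5.08), on 123 cells in fracture and 3402 in polytrauma. In fibroblast-like cells, 108 of them in fracture, Slc40a1 had 3.50 and 3.26 CPM and the interval of the ratio held 1 (0.563 to 1.66). Depth was lower in d5 polytrauma in all 4 clusters. The chondrocyte-like cells of d5 polytrauma had a median of 9284 UMIs and those of d5 fracture 47183. The medians were 12822 and 34272 in cluster 5, 22340.5 and 41902 in cluster 3, and 17055 and 42687 in fibroblast-like cells. The part of these depth gaps in the differences was not tested, for Slc40a1 or the other genes. In chondrocyte-like cells the d5 polytrauma level rests on 22 Slc40a1 UMIs in 173 cells, of which 99 were deep enough for thinning. The d5 libraries share 944 barcodes. Shared barcodes were left out only in whole-library ratios, by a 10-fold rule given below. It took 11 cells of d5 fracture and 338 of d5 polytrauma. Whether such barcodes add to the chondrocyte-like cells of d5 polytrauma was not tested, for Slc40a1 or the other genes compared in this cluster.

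Cp was lower in polytrauma in all 4 clusters at d5, by 1.77-fold in cluster 5 (44.6 and 25.2 CPM), 2.03-fold in fibroblast-like cells, 3.08-fold in cluster 3 and 1.41-fold in chondrocyte-like cells. For Trf the difference shrank. In cluster 5 it had 15.9 CPM in fracture and 13.8 in polytrauma, 1.15-fold lower (1.01 to 1.31), and in the other 3 clusters the interval held 1, so that the 2.07-fold difference of the whole libraries was not seen within clusters. Fth1 and Ftl1 were higher in polytrauma in all 4 clusters, Fth1 by 1.07 to 1.5-fold and Ftl1 by 1.10 to 1.45-fold.

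**Figure D5:**
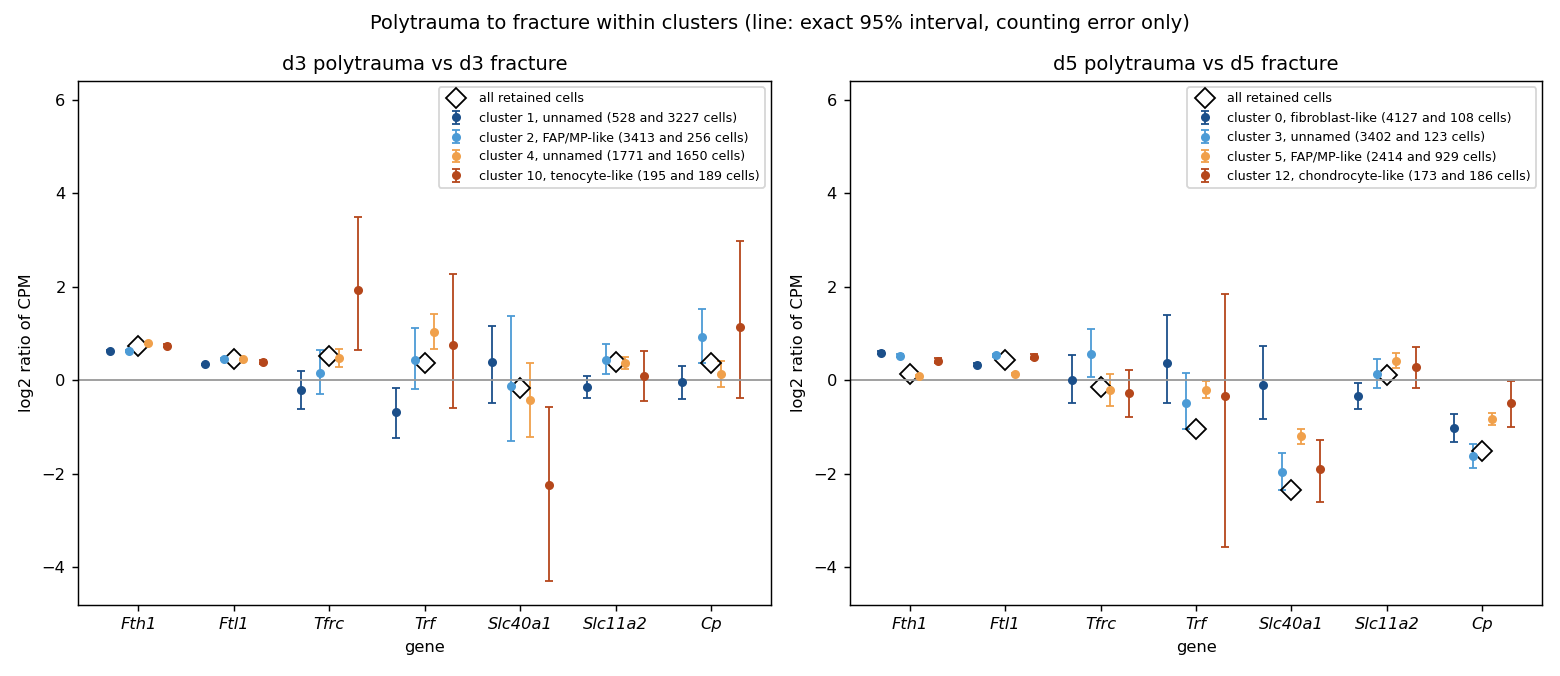
Log2 ratio of polytrauma to fracture of each gene within clusters that hold at least 100 cells of both libraries, at d3 (left) and d5 (right); lines are exact 95% intervals and open diamonds the ratio over all retained cells. Fth1 and Ftl1 lie above 0 in every cluster shown, and at d5 Slc40a1 lies between 3.89-fold lower and a ratio of 0.933.

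At d3 the higher ferritin of polytrauma was found in every cluster that could be compared. Fth1 was 1.55-fold higher in cluster 1, led by Ccl7 and Ccl2, 1.54-fold in the FAP/MP-like cluster 2, 1.73-fold in the dividing cells of cluster 4 and 1.67-fold in tenocyte-like cells. Ftl1 was 1.27 to 1.37-fold higher in the same clusters. Tfrc was higher by more than its counting interval in cluster 4 (1.39-fold) and in tenocyte-like cells (3.83-fold, 1.57 to 11.2), and Slc11a2 in clusters 2 (1.36-fold) and 4 (1.29-fold). Trf went both ways, 2.06-fold higher in cluster 4 and 1.59-fold lower in cluster 1. Cp was higher by more than its counting interval only in cluster 2 (1.89-fold). Slc40a1 was 4.72-fold lower in polytrauma in tenocyte-like cells (1.48 to 19.7), on 4 UMIs against 14 in fracture. In clusters 1, 2 and 4 the interval of its ratio held 1. The tenocyte-like cluster was the only one with at least 100 cells at d0 and at d3, and there Fth1 was 1.76-fold higher in d3 fracture and 2.93-fold higher in d3 polytrauma than at d0, while Trf was 5.54-fold and 3.27-fold lower. In the same cells Slc40a1 was 2.40-fold lower in d3 fracture (1.25 to 4.86) and 11.3-fold lower in d3 polytrauma (4.04 to 44.1), and Ftl1 was 1.34-fold higher in d3 polytrauma.

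Hmox1, the heme-degrading enzyme, moved with ferritin between the d3 injuries. It had 473 CPM at d0, 89.7 in d3 fracture and 436 in d3 polytrauma. The difference between the d3 injuries was 4.86-fold, and 2.46 to 4.40-fold within the 4 clusters. At d5 it had 78.6 CPM in fracture and 137 in polytrauma. In fibroblast-like cells of d5, however, Hmox1 was 1.21-fold lower in polytrauma and Fth1 1.5-fold higher. In tenocyte-like cells Hmox1 was 1.32-fold lower and Fth1 1.76-fold higher in d3 fracture than at d0. Cells were split by a thinned Hmox1 UMI, without hematopoietic-like cells. In d3 polytrauma the 2589 cells with Hmox1 had 6708 CPM of Fth1 and 5590 of Ftl1, and the 3449 without had 5695 and 4715. At d0 Ftl1 was 8244 CPM with Hmox1 and 5053 without, and Slc11a2 was 33.1 CPM with and 16.3 CPM without. Trf was 92.6 CPM with and 70.7 without at d0, and Cp 62.1 and 39.4 CPM. The intervals of these 4 genes did not overlap. Both ferritin chains were higher in cells with Hmox1 in all 5 libraries, again without overlap. For Tfrc and Slc40a1 the intervals overlapped in every library. The split mixes cell classes that differ in Hmox1. At d0 pericyte-like cells had 114 CPM of Hmox1 and 2105 CPM of Ftl1, and FAP/MP-like cells 607 and 7442 CPM. The part of cell class in these differences was not tested.

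Of 42 other genes of iron and heme handling, 28 passed the filter. Bmp6, Slc39a8, Cybrd1 and Tfr2, named below for their ratios, had a mean under 5 CPM and are not in the counts. In d3 fracture against d0, 6 were called higher and 8 lower, with a median log2 ratio of -0.29. Of all genes, 12.5% were called higher and 25.2% lower there. Steap1, of the Steap family, was highest in ratio, from 2.18 to 67.8 CPM (31.1-fold). Haptoglobin (Hp), which binds free hemoglobin, went from 3.21 to 45.7 CPM. Bmp6, which induces hepcidin in the liver, was 8.33-fold lower, Hmox1 5.28-fold and Alas1, the first enzyme of heme synthesis, 5.23-fold lower. In d3 polytrauma against d0, 7 were called higher and 5 lower, where 11.6% of all genes were called higher and 24.9% lower. Hp reached 118 CPM (36.7-fold), Steap1 61.5 CPM, the siderophore-binding Lcn2 went from 2.87 to 28.2 CPM and the metal importer Slc39a8 from 0.688 to 3.50 CPM, and Bmp6 was 7.36-fold lower.

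Between d3 and d5 fracture 6 of the 28 were called higher and 2 lower, where 37.3% of all genes were called. The ferrireductase Cybrd1 was 5.11-fold higher, the iron-sulfur scaffold Iscu 4.43-fold, the endosomal ferrireductase Steap3 3.90-fold and Alas1 2.80-fold higher, while Steap1 was 3.12-fold lower. Between d3 and d5 polytrauma 2 were called higher and 3 lower, where 28.6% of all genes were. Iscu was 4.36-fold higher, Tfr2, a sensor of transferrin, 2.85-fold and Cybrd1 2.81-fold higher, and Hmox1 was 3.18-fold and Hp 2.64-fold lower. Iscu had like levels in both d5 libraries (59.2 and 60.0 CPM) and in both d3 libraries (13.4 and 13.7 CPM), and 21.2 CPM at d0.

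Among genes of the list with at least 100 UMIs in a library, the largest ratios between injuries were those of Hmox1 at d3 and Steap3 at d5. In d3 polytrauma against d3 fracture 3 were called higher and none lower among the 28: Hmox1 (4.86-fold), Hp (2.58-fold) and Lcn2 (2.51-fold). Of all genes, 1.65% were called higher and 1.84% lower. Steap4 was 1.77-fold higher, and Tfr2 2.39-fold lower. In d5 polytrauma against d5 fracture 2 were called higher and 4 lower, where 1.38% of all genes were called higher and 6.99% lower. Steap3, which reduces the iron released from transferrin, had 98.1 CPM in fracture and 24.7 in polytrauma, Steap4 73.7 and 23.2, Hp 124 and 44.7, and Alas1 22.6 and 7.87, while Steap1 had 21.7 and 54.9 CPM.

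Genes with the most similar pattern were sought over the 16 merged clusters, by Pearson's r of log2(CPM + 1) among 5199 genes. The points share libraries and depth, so r is a description. For Fth1 they were Glrx (r = 0.871), Hmox1 (0.867) and Cyba (0.853), and for Ftl1 Rab5c (0.943), Sptssa (0.919) and Arl8b (0.914). The hematopoietic-like cluster lay apart from the next cluster for Fth1 (18439 and 6284 CPM), Ftl1 (21749 and 7450) and Hmox1 (1586 and 617). The part of this cluster in r was not tested. Trf was most like Selenop (0.870), Fam32a (0.866) and Apoe (0.859), and Slc40a1 most like Slc44a2 (0.892), Matn4 (0.890) and Fgfrl1 (0.806). Cp was most like Cyp26b1 (0.824), G0s2 and Ank2 (both 0.820), Slc11a2 like Rnf4 (0.898), Rab1a (0.894) and Rbm27 (0.878), and Tfrc like Cdc42se1 (0.80), Sec11c (0.756) and Atp6v1g1 (0.748).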

How the data were processed

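Alignment (mm10) and counting were done by the authors in Cell Ranger, for which the matrix header gives version 3.1.0 and the methods another. They deposited raw counts of UMIs per gene and barcode, without normalization, for 5 libraries with 34439 barcodes. Whether counting used strand is not given in the sources used here. The 7 genes, the iron and marker lists and the comparisons were chosen with earlier results of these data known.

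Cells with 350 to 8000 detected genes, under 20% mitochondrial UMIs and at least 1000 UMIs were retained. UMIs were summed per library, cluster or both and scaled to CPM, with exact Poisson 95% intervals. Ratios have exact conditional binomial intervals. In log2 ratios 0.5 UMI was added. PCR copies are removed by the UMIs, and intervals cover counting error only. Shares of cells were computed after thinning unless stated otherwise: 2000 UMIs were drawn per cell, and cells with fewer (744 cells at d0 and 30 to 424 elsewhere) were left out. Shares have Clopper-Pearson intervals. For a count of 0 the upper bound of that interval is printed.

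Clustering used Seurat 5.3.0 under R 4.3.3 (2000 variable genes without iron and naming genes, 20 principal components, resolution 0.5). A cluster was named where 3 or more markers of a type were in at least 10% of its cells and above their mean in the other clusters. The type with the largest share of its markers was taken, fibroblast only where no other type qualified. No name was given on a tie, where another type or the cycling genes had more markers among the 10 leading genes, or where depth was low and no marker led. Doublets were scored with Scrublet in scanpy 1.11.5 and kept. Barcodes present in several libraries were kept unless an alternative says otherwise. That alternative left out a cell whose barcode was also in another library, unless the cell had at least 10-fold the UMIs found there. This took 11 to 338 retained cells per library, and other shared barcodes stayed in. Positions and UTRs are from GENCODE M21 (GRCm38), in which 31011 of 31055 identifiers were found. The interval and thinning code was checked on simulated counts. Other genes named are, per comparison, the up to 5 of the iron list with the largest ratio among those with at least 100 UMIs in a library, the 3 genes most alike over clusters, and Hmox1. Other software was Python with numpy 2.4.6, scipy 1.17.1 and pandas 2.3.3.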

Additional observations from a re-analysis of the deposited data

Results flagged for a closer look

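For 2 of the 7 genes the ratio of polytrauma to fracture had opposite signs at d3 and d5, with counting intervals that excluded 0 on the log2 scale at both times. For Trf the log2 ratio was 0.36 at d3 and -1.05 at d5, a difference of -1.41. For Cp it was 0.37 at d3 and -1.52 at d5, a difference of -1.89. The difference was not tested, since each condition has 1 library, and it rests on the reading of the labels of 2 of the 4 libraries. For Trf the value at d3 was -0.24 with every cell weighted equally and -1.09 within FAP/MP-like cells. Of these, d3 fracture holds 57 cells of cluster 6 of the merged libraries, found mainly at d0, and d3 polytrauma holds 3. The 57 cells gave 8.47% of the Trf UMIs of d3 fracture. Within the FAP/MP-like cluster 2 Trf had 8.63 CPM in d3 polytrauma and 6.38 in d3 fracture, a ratio of 1.35 (0.882 to 2.18). For Cp the interval of the d3 ratio excluded 1 only in cluster 2, at 1.89 (1.29 to 2.86). In cluster 1 it was 0.976 (0.763 to 1.23), in cluster 4 1.1 (0.9 to 1.34) and in tenocyte-like cells 2.22 (0.769 to 7.83). All FAP/MP-like cells together had 15.3 CPM of Cp in d3 polytrauma and 14.9 in d3 fracture.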

How the results depend on the processing

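No paired analysis was possible because each condition has 1 library. Of 42 log2 ratios (7 genes in 6 comparisons), all kept their sign without a minimum of UMIs or a maximum of genes per cell. All also kept it without the highest doublet scores and without cells with 2 hematopoietic markers. The same held without shared barcodes, left out by the 10-fold rule (11 cells of d5 fracture). The sign was kept by 38 under median-of-ratios scaling, by 41 with equal cell weights and by 37 within FAP/MP-like cells, and by 11 of 35 with the conditions as deposited. Of the 16 ratios past 2-fold, 15 stayed past it under median-of-ratios scaling, and 3 others passed it. With the deposited conditions, the number of genes past 2-fold was 0 in place of 4 for d5 against d3 fracture and 4 in place of 0 for d3 polytrauma against d3 fracture. Within FAP/MP-like cells it was 1 in place of 0 in the latter and 1 in place of 3 for d5 polytrauma against d5 fracture.

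The ratios past 2-fold that turned in sign with the deposited conditions were, on the log2 scale, those of Ftl1 (0.46) and Slc40a1 (-0.16) for d5 against d3 fracture, of Slc40a1 (2.79) for d3 polytrauma against d0, of Fth1 (0.14), Ftl1 (0.44) and Slc40a1 (-2.35) for d5 against d3 polytrauma, and of Slc40a1 (2.22) and Cp (0.34) for d5 polytrauma against d5 fracture. Within FAP/MP-like cells 5 ratios turned: Trf to -0.13 for d5 against d3 fracture, -1.09 for d3 polytrauma against d3 fracture and 0.74 for d5 against d3 polytrauma, and Tfrc to 0.39 and Slc11a2 to -0.01 for d3 fracture against d0. The d3 fracture library holds 326 such cells, and different clusters hold the class in each library. Depth limits Slc40a1 at d0, with 76 UMIs, and Tfrc, with 177. Without a filter on low levels, 21.0% of all genes were past 2-fold for d3 polytrauma against d3 fracture in place of 3.49%, and 31.9% for d5 polytrauma against d5 fracture in place of 8.37%. At resolution 0.3 the highest cluster level of Trf was 115 CPM, in hematopoietic-like cells, in place of 146 CPM in FAP/MP-like cells.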
